A study of Mus musculus with 10 samples.

Results

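The sites described here are the intronic polyadenylation (IPA) sites that reached 10% usage in at least one of 4 mouse mammary tumour cell lines. Usage is the percentage of reads at the intronic site among all reads at that site and at the last exon of the same gene. The deposited tables that compare the lines list 520 distinct sites in 449 genes, and 292 of these sites (56.2%), in 261 genes, had a mean usage of 10% or more in a line of a table that lists them. The other 228 sites stayed below 10%. The sites were chosen by the measured usage itself, and the tables hold only sites that the authors found to differ between lines, so levels, line patterns and directions are given as a description with no test.

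The lines are 67NR and 168FARN, which the study calls non-metastatic, and 4T07 and 4T1, which it calls metastatic. The labels name the first pair non-invasive and the second pair invasive. All are cultured mouse mammary tumour cells of the 4T1 family, and the labels of the 4 lines give no treatment. Each was measured by 3'-end sequencing of polyadenylated RNA in 2 libraries. In a further group, 4T1-U1-ASO, U1 small nuclear RNA of 4T1 cells was blocked by an antisense morpholino. The study's design names mock-transfected 4T1 cells as its control, while the 4T1 labels give no treatment. Whether the 2 libraries of a line are separate cultures is not said, so errors and p-values cover only how far these libraries differ, and that may be technical.

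A transcript is normally cut and polyadenylated at the end of its last exon. When the cleavage machinery uses a poly(A) signal inside an intron instead, the transcript is truncated, and the encoded protein can lose its C-terminal domains. U1 small nuclear RNA base-pairs with 5' splice sites and also shields nearby intronic poly(A) signals from use. A high IPA usage can come from many reads at the site or from few at the last exon, so both read numbers are given for the sites described.

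Each library's peak list held 1427728 to 3347776 reads. The lowest value belongs to the list of 67NR replicate 2, which covers 10 chromosomes and was not used in any fit of peaks. In the comparison tables every normalized value was a whole number of reads within a tolerance of 0.1 read, and these recovered reads stand behind every usage below. They were amplified by PCR and carry no molecular identifiers, so read numbers bear on counting error only. In the line where a site was used most, the median site had a mean of 97.8 reads per library at the site and the last exon together, with a range of 1.5 to 2211 reads. At 247 of the 292 sites both libraries of that line held at least 20 such reads, and at 30 sites a library held fewer than 10. The replicate SD in that line had a median of 2.74 percentage points and exceeded 10 points at 26 sites.

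Low usage was the most common case among the sites. The highest line mean lay between 10% and 25% at 120 sites, between 25% and 50% at 60, between 50% and 75% at 46, between 75% and 90% at 21 and at 90% or above at 45. The line with the highest usage was 168FARN at 142 sites, 67NR at 103, 4T07 at 29 and 4T1 at 18. A line has a value here only where a comparison of lines that includes it lists the site. By this count 4T07 has values at 269 sites, 168FARN at 209, 67NR at 143 and 4T1 at 113. The comparison of 4T1-U1-ASO with 4T1 gives 4T1 values at 25 more sites, which are not counted here. Usage was 10% or more at 131 of the 143 sites with a value in 67NR and at 184 of 209 in 168FARN. The same held at 115 of 269 sites in 4T07 and 48 of 113 in 4T1. Median usage was 23.5% in 67NR, 27.1% in 168FARN, 6.52% in 4T07 and 6.15% in 4T1. Over all listed sites the medians were 9.94%, 10.8%, 2.26% and 2.58% in the same order. The gap between the classes is thus not read as a trait of sites that reach 10%. The libraries are bulk samples, so fewer cells using a site and less of its RNA per cell cannot be told apart. Where a library had no read at a site, a count of 0 still allows 3 reads, which is a usage of up to 4.41% at the median of 111 such library values with more than 3 last-exon reads.

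**Figure D1:**
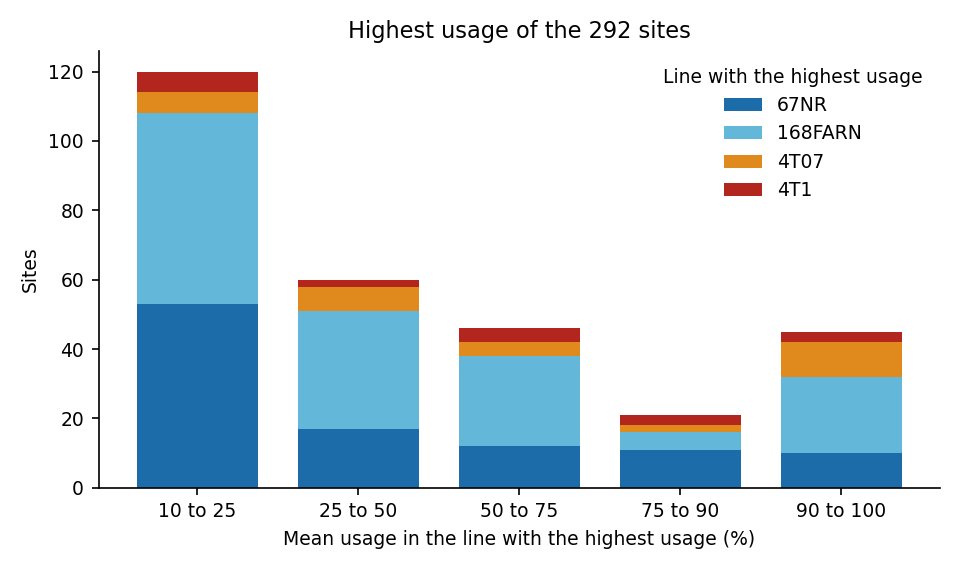
Number of sites by the mean usage (%) in the line where each of the 292 sites was used most; colours give that line. The 10% to 25% bar holds 120 sites and the 90% to 100% bar 45, and 67NR or 168FARN was the highest line at 245 of the 292.

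The reads at the last exon separated the most used sites from the rest. In the line of highest usage the median last-exon level was 111 reads per library at sites of 10% to 25%, 65.3 at 25% to 50%, 21.3 at 50% to 75%, 13.0 at 75% to 90% and 0 at 90% to 100%. The median at the intronic site was 19.5, 37.3, 25.8, 84.0 and 19.5 reads over the same bands. At 23 sites the last exon had no read in either library of that line, so their usage of 100% says that the last exon was not detected at this depth. The last exon had a mean of fewer than 5 reads at 52 sites. Compared with the 228 sites below 10%, the 292 had fewer last-exon reads (median over sites of the mean per library 88.3 against 474.5) and more site reads (16.3 against 7.29). Usage is made of these reads, so this restates the rule in its parts. Width, which the rule did not use, had a median of 410 bp (quartiles 227.8 and 663) against 376 bp (quartiles 245 and 579.8) below 10%, and 160 of the 292 sites lay on the plus strand.

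Values in all 4 lines were available for 33 sites, which allow usage to be followed over the whole family. Both non-metastatic lines and neither metastatic line reached 10% at 9 of them, in Dhx40, Dlk2, Exd2, Gpr126, Ldhb, Parn, Ppp1r13b, Sec23b and Spint2. All lines reached 10% at 6, in Camk1d, Ddah1, Eif4e2, Kcnk2, Prickle2 and Prpf31. At 5 sites, among them those in As3mt, Cdk5rap3, Hip1 and Slc25a13, only 67NR reached it, and 4 more (4931406C07Rik, Nsd1, Pde4d and Sbno2) reached it in every line but 4T07. Both metastatic lines and neither non-metastatic line reached it at 3 sites, in AI506816, Trps1 and Twist2. Smaller groups were 67NR with 4T07 (Abcb10 and Nav2), 4T1 alone (Padi2 and Rin2), 4T07 alone (Snrnp35) and every line but 4T1 (Auh). Taking single libraries, all 4 non-metastatic libraries lay above all 4 metastatic ones at 16 of the 33 sites. All metastatic ones lay above at 5, and the libraries overlapped at 12. This split was not made over all listed sites, of which 75.3% to 82.2% were lower in the metastatic line of a comparison. Nothing is thus read from it about sites that reach 10%.

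**Figure D2:**
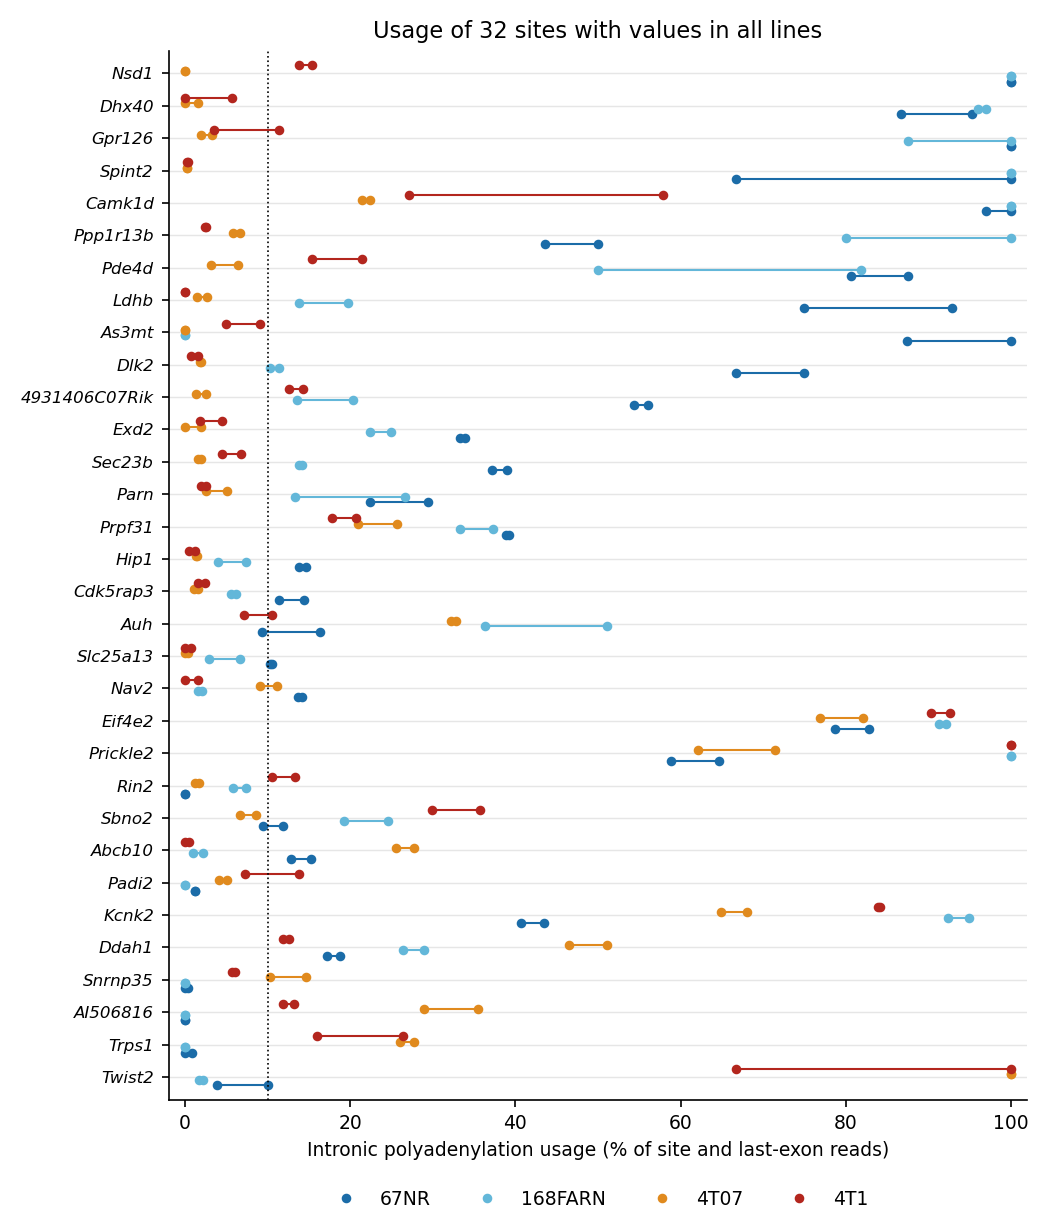
Usage (%) of 32 of the 33 sites with values in all lines, 1 row per site, sorted by the mean difference between the non-metastatic and metastatic lines. Each point is a library, lines join the 2 libraries of a cell line, and the dotted line marks 10%; Dhx40 lies at 86.7% or above in the non-metastatic libraries and at 5.66% or below in the metastatic ones.

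Among sites shared by the non-metastatic lines, Dhx40 had the widest difference between lines with at least 20 reads in each library of its extreme lines. Dhx40 encodes a DEAH-box RNA helicase, and its site lies on chromosome 11, 86601032 to 86601262, minus strand (mm9). Usage was 86.7% and 95.3% in 67NR, 96.0% and 97.0% in 168FARN, 0% and 1.52% in 4T07, and 5.66% and 0% in 4T1. Both parts of the ratio differed: the site had 24 to 41 reads in the non-metastatic libraries and 0 to 3 in the others, and the last exon 1 to 6 against 50 to 194. The site in Camk1d, a calcium/calmodulin-dependent protein kinase gene, differed in another way. Its usage was 98.5% ± 2.15 in 67NR, 100% ± 0 in 168FARN, 21.9% ± 0.696 in 4T07 and 42.5% ± 21.7 in 4T1 (SD, n = 2 per line). Site reads ranged only from 19 to 39 over the 8 libraries, whereas the last exon had 0 or 1 read in the non-metastatic libraries and 24 to 135 in the metastatic ones. Camk1d libraries of the 2 classes did not overlap in usage, and the difference sat in the last exon.

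Sec23b, whose protein coats transport vesicles of the secretory pathway, held a similar number of last-exon reads in every library, from 244 to 358. Its usage was 39.0% and 37.1% in 67NR, 14.2% and 13.8% in 168FARN, 1.53% and 1.92% in 4T07, and 4.44% and 6.77% in 4T1. The 4 lines did not overlap, and the site reads ran from 5 to 167. The site lies on chromosome 2, 144386551 to 144386837, plus strand. Exd2, an exonuclease gene, showed the same order of lines at lower depth, with 33.6% ± 0.398 in 67NR, 23.7% ± 1.80 in 168FARN, 0.959% ± 1.36 in 4T07 and 3.11% ± 1.92 in 4T1 (SD, n = 2 per line). Its last exon had 38 to 64 reads in each library, and its 4T07 and 4T1 libraries overlapped. The site of 4931406C07Rik had 55.2% ± 1.24 in 67NR, 16.9% ± 4.81 in 168FARN, 1.92% ± 0.883 in 4T07 and 13.5% ± 1.16 in 4T1 (SD, n = 2 per line). There, 168FARN and 4T1 did not differ beyond their spread, while 67NR lay above and 4T07 below. Pde4d, a cyclic AMP phosphodiesterase gene, had 84.1% ± 4.86 in 67NR, 65.9% ± 22.5 in 168FARN, 18.4% ± 4.29 in 4T1 and 4.78% ± 2.35 in 4T07 (SD, n = 2 per line). The 168FARN libraries of Pde4d, at 81.8% and 50.0%, rested on 9 and 7 site reads, and their spread overlapped that of 67NR.

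A smaller set was used in the metastatic lines. AI506816 had no site read in 67NR or 168FARN, where its last exon held 118 to 305 reads per library, which allows a usage of up to 0.984% to 2.54%. Usage was 29.0% and 35.5% in 4T07, from 20 and 33 site reads, and 13.2% and 11.9% in 4T1, from 9 and 10. Trps1, which encodes a GATA-type transcriptional repressor, carried a 2290-bp site on chromosome 15, 50554556 to 50556845, minus strand. Its usage was 0% and 0.823% in 67NR, 0% and 0% in 168FARN, 27.7% and 26.0% in 4T07, and 16% and 26.4% in 4T1. The metastatic libraries of AI506816 and Trps1 lay above every non-metastatic one, and the last exon of both genes was detected in every library. Snrnp35, a gene of the minor spliceosome, had 12.4% ± 3.04 in 4T07, 5.91% ± 0.272 in 4T1, 0.192% ± 0.272 in 67NR and 0% ± 0 in 168FARN (SD, n = 2 per line). Padi2, a peptidylarginine deiminase gene, reached 10.5% ± 4.60 in 4T1 only, from 12 and 7 site reads, and its 4T1 libraries of 13.8% and 7.29% fell on both sides of 10%.

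Other sites did not follow the division of the lines. Kcnk2, which encodes a potassium leak channel, had 42.1% ± 1.95 in 67NR, 66.5% ± 2.18 in 4T07, 84.0% ± 0.160 in 4T1 and 93.7% ± 1.84 in 168FARN (SD, n = 2 per line). No neighbours in that order overlapped, and the lowest and the highest line were both non-metastatic. Ddah1, a dimethylarginine hydrolase gene, had 12.2% ± 0.520 in 4T1, 18% ± 1.12 in 67NR, 27.6% ± 1.80 in 168FARN and 48.8% ± 3.18 in 4T07 (SD, n = 2 per line), so the metastatic lines stood at both ends. Auh, which encodes an RNA-binding enzyme of leucine breakdown, was used at 43.7% ± 10.5 in 168FARN and 32.5% ± 0.438 in 4T07, and at 12.9% ± 4.95 in 67NR and 8.83% ± 2.40 in 4T1 (SD, n = 2 per line). The libraries of 67NR and 4T1 overlapped at Auh. Abcb10, a mitochondrial ABC transporter gene, paired 67NR (14.0% ± 1.75) with 4T07 (26.6% ± 1.55), while 168FARN had 1.58% ± 0.869 and 4T1 0.247% ± 0.350 (SD, n = 2 per line).

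Among those of the 33 sites with at least 20 reads in every library, the smallest span from lowest to highest line was 10.2 points. A small span in points at a low usage can still be a large relative change. At Slc25a13 the authors' deposited log2 fold changes were -2.83 in 4T1 and -2.85 in 4T07 against 67NR. Eif4e2, which encodes a cap-binding protein that represses translation, was used at 80.8% ± 2.92 in 67NR, 91.7% ± 0.619 in 168FARN, 79.5% ± 3.67 in 4T07 and 91.5% ± 1.62 in 4T1 (SD, n = 2 per line). Its site, on chromosome 1, 89124237 to 89124850, plus strand, had 329 to 909 reads per library, against 70 to 123 at the last exon. Libraries of 67NR and 4T07 overlapped, as did those of 168FARN and 4T1. Slc25a13, a mitochondrial aspartate-glutamate carrier gene, and Cdk5rap3 stood near the threshold in 67NR, at 10.4% ± 0.0962 and 12.9% ± 2.13, and under 6% in each other line. Slc25a13 had 4.81% ± 2.64 in 168FARN, 0.196% ± 0.277 in 4T07 and 0.361% ± 0.511 in 4T1 (SD, n = 2 per line). Rin2, an exchange factor gene for Rab5, had 11.9% ± 1.98 in 4T1, 6.59% ± 1.08 in 168FARN, 1.48% ± 0.341 in 4T07 and no site read among 60 and 70 last-exon reads in 67NR.

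In each comparison of a metastatic with a non-metastatic line, most of the sites were used less in the metastatic line, as were most sites of the whole table. In the authors' deposited table of 4T1 against 67NR, usage was lower in 4T1 at 55 of 77 of these sites, beside 76.2% of all listed sites, and higher at 22, beside 23.8%. In 4T07 against 67NR it was lower at 99 of 119, beside 82.2% of all listed sites, and higher at 20, beside 17.8%. In 4T1 against 168FARN it was lower at 41 of 55, beside 75.3%, and higher at 14, beside 24.7%. In 4T07 against 168FARN it was lower at 167 of 195, beside 79.6%, and higher at 28, beside 20.4%. These shares lie near the shares of the tables, and the sites were selected on the same contrasts, so nothing is read from them. Over these sites the authors' deposited tables give a median log2 fold change of -1.74, -1.93, -1.69 and -1.62, in the same order, and -1.69, -1.79, -1.68 and -1.59 over all listed sites.

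**Figure D3:**
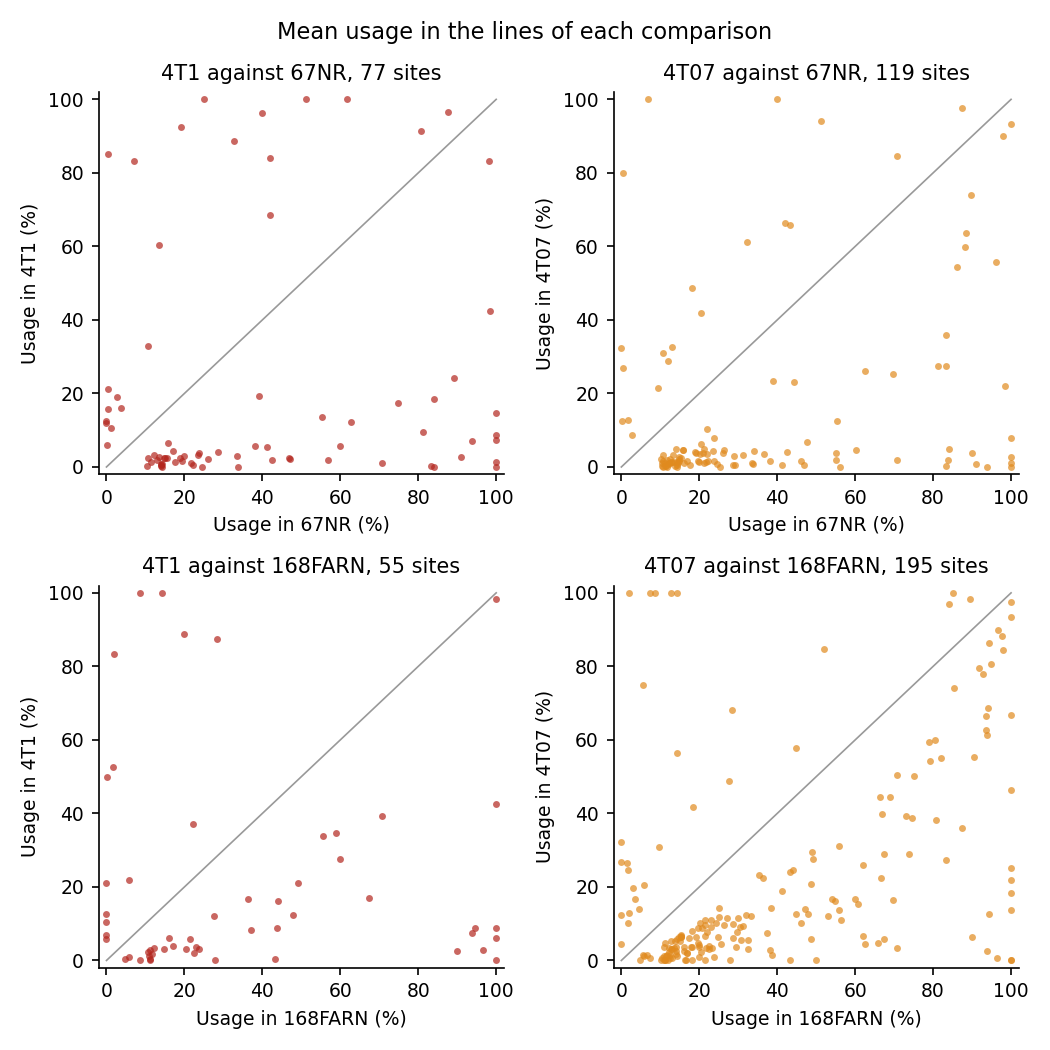
Mean usage (%) in the metastatic line (y) against the non-metastatic line (x) for the sites that the authors' deposited table lists in each comparison; each point is a site and the grey line marks equal usage. Points below the line number 55 of 77, 99 of 119, 41 of 55 and 167 of 195 in the panels from top left to bottom right.

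The differences were split into the change at the site and the change at the last exon within each comparison. This split was not made over all listed sites, and differences between the comparisons were not tested. The larger of the 2 changes, on a log2 scale of normalized reads with a pseudocount of 0.5, was at the site for 39 of the 55 sites lower in 4T1 than in 67NR and for 77 of the 99 lower in 4T07 than in 67NR. Against 168FARN it was at the site for 24 of 41 in 4T1 and for 95 of 167 in 4T07. Median differences at the site were -2.69, -2.64, -1.75 and -1.30, and at the last exon 0.93, 0.80, 0.66 and 0.94, in that order. Among sites higher in the metastatic line, the site changed more at 10 of 22 and 7 of 20 against 67NR and at 7 of 14 and 9 of 28 against 168FARN. At those sites the median last-exon difference was -2.06, -1.64, -2.39 and -1.69 in the same order. The split was tried after the data were seen, and a pseudocount understates the change of low values. For sites lower in 4T1, the site changed more at 70.9% against 67NR and 58.5% against 168FARN. With a pseudocount of 5 these shares were close, at 58.2% and 56.1%. For sites lower in 4T07 the shares were 77.8% and 56.9%, and 69.7% and 52.7% with a pseudocount of 5.

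**Figure D4:**
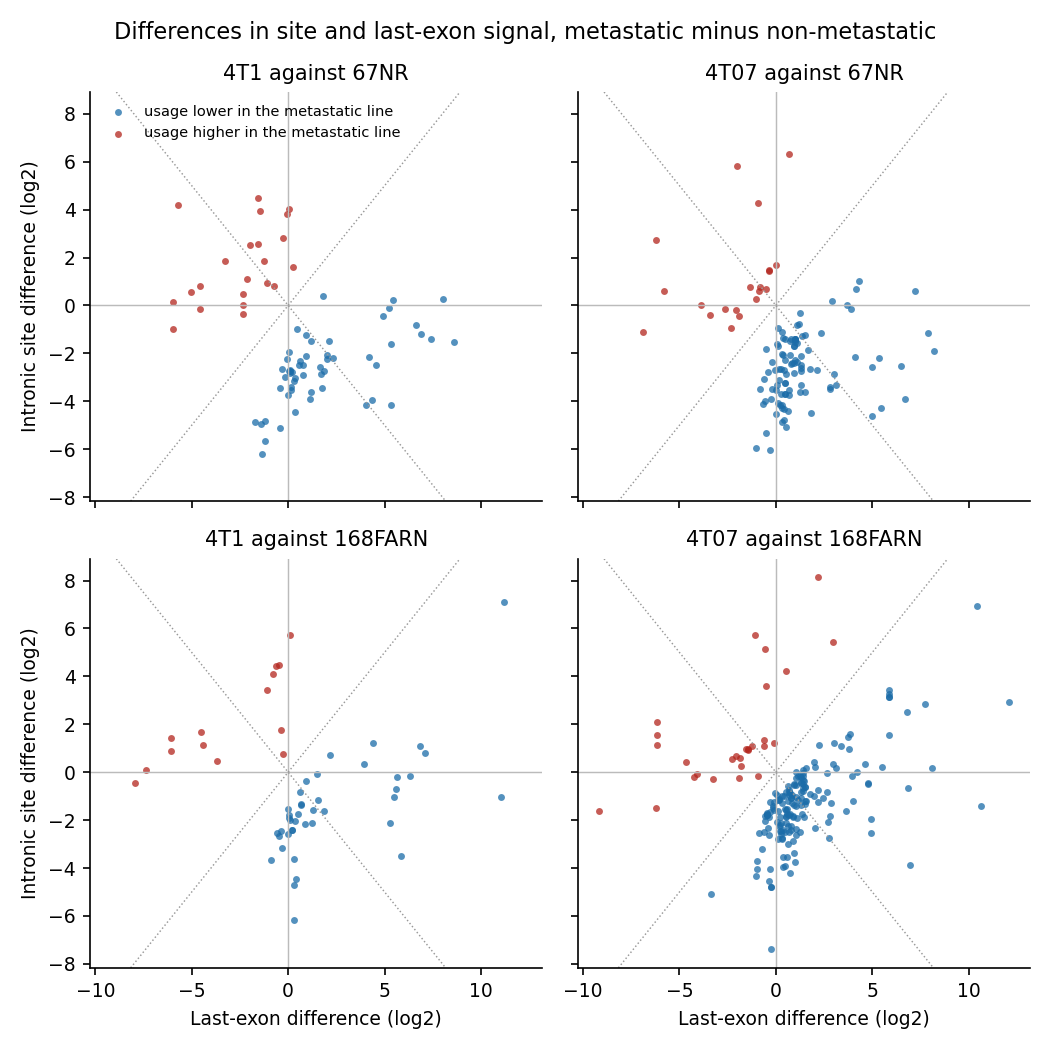
Difference in normalized reads at the site (y) against the last exon (x), metastatic minus non-metastatic line, as log2 with a pseudocount of 0.5; each point is a site, coloured by the direction of its usage, and the dotted diagonals mark changes of equal size. Points above or below both diagonals changed more at the site, 77 of the 99 lower ones in 4T07 against 67NR and 95 of the 167 in 4T07 against 168FARN.

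At 84 sites 3 lines had values, and no such site had overlapping libraries between the line classes. This follows in part from the tables, which list a 3-line site only where it differed in 2 comparisons. The highest and the lowest line overlapped at none of the 84, nor at any of the 135 listed sites with values in 3 lines. Nothing is read from the lack of overlap. All non-metastatic libraries were above at 22 of the 27 without a 67NR value, 25 of the 30 without 168FARN, 2 of the 3 without 4T07 and 20 of the 24 without 4T1. This order of the classes was not counted over all listed sites with values in 3 lines. Of all listed sites, 75.3% to 82.2% were lower in the metastatic line of a comparison, so nothing is read from these counts. The sites higher in the metastatic lines, named here because of these values, were those in Ngef, Traf5, Zzef1 and 2 of Nlrp4e without 67NR and those in Gas2l1, Mctp1, Mgll, Otud7a and Tmem167 without 168FARN. They also included Cpeb3 without 4T07 and those in 1600002K03Rik, Sirt7, Specc1 and Trp53 without 4T1. Tmem167, which encodes a small Golgi protein, had 2.65% ± 0.487 in 67NR, 8.75% ± 1.63 in 4T07 and 19.1% ± 0.771 in 4T1 (SD, n = 2 per line). Its last exon held 365 to 634 reads per library and its site 15 to 102, and the 3 lines did not overlap. The remaining 175 sites had values in 2 lines, and the 2 lines did not overlap at 172 of them (98.3%), as at 335 of the 340 listed sites with values in 2 lines (98.5%), so nothing is read from it.

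Several of the sites with the most reads combined high usage with modest differences between lines. The deepest was the site of Ahnak, which encodes a very large scaffold protein, with 1719 and 2161 site reads in 67NR. It spans 4155 bp of chromosome 19, 9089616 to 9093770, plus strand, the longest interval of all. Usage was 97.9% ± 0.543 in 67NR, 96.7% ± 2.35 in 168FARN and 89.9% ± 2.86 in 4T07 (SD, n = 2 per line), and the 4T07 libraries lay below the others. Vmp1, which encodes an autophagy protein of the endoplasmic reticulum, was used at 46.4% and 40.0% in 67NR and at 64.6% and 66.8% in 4T07. The site in Sin3b, a corepressor scaffold gene, had 94.5% ± 0.879 in 168FARN and 86.4% ± 3.05 in 4T07, and that in Txnl4a, a spliceosome gene, 44.7% ± 2.70 and 57.7% ± 0.274 (SD, n = 2 per line). Mkks, a chaperonin-like gene, had 94.8% ± 2.84 in 168FARN and 80.8% ± 0.915 in 4T07 (SD, n = 2 per line). The libraries of the compared lines did not overlap at Vmp1, Sin3b, Txnl4a or Mkks. At Csf1, which encodes macrophage colony-stimulating factor, usage was 19.1% ± 1.19 in 168FARN and 6.51% ± 1.44 in 4T07 (SD, n = 2 per line). Both parts were far lower there in 4T07: the site had 430 and 412 reads in 168FARN and 9 and 14 in 4T07, and the last exon 1730 and 1849 against 155 and 172.

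One gene usually held 1 such site: 241 of the 261 genes had 1, 20 had 2 or more and 7 had 3 or more. Ahnak and Cp held 5 each, and Gosr2, Nlrp4e, Nsd1, Rock2 and Sh3glb1 held 3 each. Sites of a gene share the same last-exon reads, so their values are not independent. In Cp, which encodes the copper-binding plasma protein ceruloplasmin, all 5 sites were used more in 168FARN than in 4T07, at 61.9% to 98.0% against 6.58% to 84.5%. The last exon of Cp had 1 and 3 reads in 168FARN, while its most used site had 66 and 112 reads there and 731 and 754 in 4T07. So Cp had more reads at its sites and its last exon in 4T07, where usage was lower. The 5 Ahnak sites kept one order of lines, with means of 55.3% to 97.9% in 67NR, 44.7% to 96.7% in 168FARN and 12.6% to 89.9% in 4T07. The libraries of 67NR and 168FARN overlapped at each Ahnak site, and those of 4T07 lay below both; at the site starting at 9082148 they stood at 6.18% and 19.0%.

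Gosr2, a Golgi SNARE gene, held almost all of its site reads in 168FARN. Its most used site had 81 and 92 reads in 168FARN, none in 4T07, and 1 and 0 in 4T1, with 92 to 124 last-exon reads in every one of these libraries. A count of 0 allows up to 3.26% in each 4T07 library. The usage was 43.3% ± 5.42, 0% ± 0 and 0.413% ± 0.585 (SD, n = 2 per line), and the other two Gosr2 sites had 11.1% ± 2.28 and 11.2% ± 4.25 there. Rock2 encodes a kinase of the actin cytoskeleton. Its 79-bp site, chromosome 12, 16929810 to 16929888, plus strand, was used at 90.4% and 76.4% in 67NR, 81.2% and 85.6% in 168FARN, and 22.0% and 32.9% in 4T07. In 4T1, which has a value there only from the comparison with the U1 block, usage was 56.6% ± 21.7 (SD, n = 2). The site had 211 to 662 reads in the non-metastatic libraries and 28 and 48 in 4T07. The other two Rock2 sites had 22.4% ± 4.79 and 16% ± 5.19 in 168FARN and 3.90% ± 0.0320 and 2.46% ± 2.07 in 4T07 (SD, n = 2 per line). At Nlrp4e the last exon had no read in 4T07, so its 3 sites stood at 100% from 7 to 18 reads per library. Nlrp4e belongs to a family of near-identical genes, so its values are uncertain where reads were shared between copies.

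Factors that act on RNA were among the genes with such sites. Gene lists are read against all genes of the line tables, of which 261 of 449 held a site at 10% or more (member genes), with a non-metastatic line highest at 245 of the 292 sites. Of the cleavage and polyadenylation list, 3 of 4 listed genes were members. Wdr33, a subunit of the complex that recognises the poly(A) signal, had 49.2% ± 2.09 in 168FARN, 27.5% ± 1.96 in 4T07 and 21.1% ± 7.88 in 4T1, and Papola, the poly(A) polymerase gene, 15.3% ± 2.81 in 168FARN and 6.45% ± 0.963 in 4T07 (SD, n = 2 per line). Cpeb3, whose protein controls translation through the 3' ends of messenger RNAs, ran the other way. Its usage was 90.5% and 87.0% in 4T1, from 67 and 80 site reads, while 67NR had 44.4% and 21.0% and 168FARN 28.6% and 11.1%, from 3 to 8. Of the splicing and helicase list, 4 of 11 listed genes were members (Dhx40, Prpf31, Snrnp35 and Tia1). Prpf31, a protein of the U4/U6 particle, had 39.0% ± 0.250 in 67NR, 35.3% ± 2.89 in 168FARN, 23.3% ± 3.35 in 4T07 and 19.2% ± 2.11 in 4T1 (SD, n = 2 per line). Its last-exon reads stayed between 293 and 371 in all libraries, and its non-metastatic libraries lay above its metastatic ones. Tia1, whose protein binds U-rich introns, had 12.4% ± 2.80 in 67NR and 2.08% ± 0.308 in 4T07 (SD, n = 2 per line).

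All 6 listed genes of DNA damage response and repair held a site at 10% or more, with 7 of their 8 listed sites. The highest line was non-metastatic at 6 of the 7. Palb2, the partner of Brca2, had 84.5% and 79.4% in 168FARN and 57.4% and 52.6% in 4T07. Rad51c, a recombinase paralogue, had 38.4% ± 4.48 and 14.3% ± 3.14 in the same lines, and Polh, a translesion polymerase, 55.0% ± 7.07 in 67NR and 3.84% ± 5.43 in 4T07 (SD, n = 2 per line). The exception was the site of Trp53, the p53 gene, which was highest in 4T07 at 12.9% ± 3.27, from 5 and 4 site reads. Its last exon there had 28 and 34 reads, against 312 to 435 in 67NR and 168FARN. Trp53 is named for its direction, after its values were seen.

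Among cell cycle genes, 4 of 12 listed genes were members, and the highest line was non-metastatic at all 5 of their sites. Cep95, a centrosomal protein gene, had 83.4% ± 5.85 in 67NR and 36.0% ± 6.44 in 4T07, and the 2 sites of Rbl1, an Rb-family repressor, had 55.8% ± 5.88 and 24.8% ± 4.21 in 168FARN and 31.3% ± 3.30 and 6.47% ± 1.37 in 4T07 (SD, n = 2 per line). Ccnl2, a cyclin of splicing speckles, had 17% ± 1.4 in 168FARN and 3.99% ± 0.596 in 4T1. Of the chromatin regulators 3 of 9 listed genes were members, again with a non-metastatic line highest at all 5 sites. Smarcad1, a chromatin remodeller, had 93.9% ± 4.65 in 168FARN and 61.4% ± 2.77 in 4T07, and Kdm3a, a histone demethylase, 21.6% ± 8.06 and 6.72% ± 1.77 (SD, n = 2 per line). The histone methyltransferase gene Nsd1 had no last-exon read in 67NR or 168FARN, and each of its 3 sites stood at 100% wherever these lines have a value, from 2 to 13 reads per library. Of the cytoskeleton and adhesion list 3 of 9 listed genes were members, among them Rock2 with 3 sites and Ngef.

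Ubiquitin ligases and deubiquitinases gave 10 member genes of 15 listed, with 1 site each and a non-metastatic line highest at 8. Cul1, the scaffold of SCF ligases, had 14.7% ± 2.2 in 67NR, 1.57% ± 0.922 in 4T07 and 2.56% ± 1.36 in 4T1, and Trim27 14.0% ± 2.61 in 67NR and 4.91% ± 0.823 in 4T07 (SD, n = 2 per line). Usp21 had 23.0% ± 1.65 in 168FARN, 9.02% ± 1.67 in 4T07 and 3.75% ± 1.64 in 4T1. Otud7a was one of the 2 highest in a metastatic line, with 39.9% ± 14.3 in 67NR, 96.2% ± 5.43 in 4T1 and 100% ± 0 in 4T07. The last exon of Otud7a had 33 and 25 reads in 67NR and 0 or 1 in each metastatic library, and its site 12 to 32 throughout. Transporter genes gave 6 of 9 listed genes. The nucleotide-sugar carriers Slc35b2 and Slc35d2 had 23.0% ± 3.46 in 168FARN against 10.9% ± 1.97 in 4T07, and 47.7% ± 3.21 in 67NR against 6.85% ± 3.76 in 4T07 (SD, n = 2 per line). The zinc transporter Slc30a6 had 19.9% ± 3.73 in 67NR, 1.47% ± 2.08 in 4T07 and 2.86% ± 0.370 in 4T1.

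Of the endoplasmic reticulum and Golgi list 5 of 10 listed genes were members, with 7 sites. Beside Sec23b, Gosr2 and Tmem167, they included Rab21, an endosomal GTPase, with 21.5% ± 3.48 in 168FARN and 10.9% ± 1.82 in 4T07 (SD, n = 2 per line). All 5 listed zinc finger and BTB genes were members. Zfp746 had 31.9% ± 6.17 in 168FARN and 12.4% ± 1.02 in 4T07, Prdm2 28.7% ± 11.2 and 10.0% ± 1.07, and Zfp444 23.5% ± 5.00 in 67NR, 4.33% ± 1.32 in 4T07 and 3.16% ± 0.977 in 4T1 (SD, n = 2 per line). Trps1 of the same list was the one highest in a metastatic line. No gene of the list of 16 immune cell markers was listed, so that list could not be read here.

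Among marker genes of epithelial and mesenchymal cells, Spint2, Cblc and Twist2 had last exons that were nearly unread in one class of lines. Trps1, also on the mesenchymal list, did not share this, as its last exon was detected in every library. Listed markers that stayed below 10% are not described here. Of 23 epithelial markers the tables list 2, and both were members. Spint2, an inhibitor of membrane proteases, had 5 and 0 last-exon reads in 67NR, none in 168FARN, 730 and 849 in 4T07, and 963 and 965 in 4T1. Its site had 2 to 10 reads in every library, so usage was 83.3% ± 23.6 in 67NR and 100% ± 0 in 168FARN but 0.254% ± 0.0276 in 4T07 and 0.258% ± 0.0722 in 4T1 (SD, n = 2 per line). Cblc, an epithelial ubiquitin ligase gene, had no last-exon read in 67NR or 168FARN and 55 and 50 in 4T1. Of 26 mesenchymal markers 6 genes were listed and 3 were members, all highest in a metastatic line. Mean site reads in that line were 138.5 at Trps1, 1.5 at Twist2 and 0.5 at Prrx1. The direction at Twist2 and Prrx1 thus rests on almost no site reads. Twist2, a mesenchymal transcription factor gene, had 74 and 54 last-exon reads in 67NR, 309 and 293 in 168FARN, none in 4T07, and 2 and 0 in 4T1. Its 100% in 4T07 came from 2 reads and 1 read. Of the 18 defining markers of epithelial, mesenchymal and immune cells, only Twist2, Prrx1 and Sparc are in these tables. The part that such differences in expression have in the usage of other sites was not tested.

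The values on both sides of the threshold were close. Pdzd8 had 10.1% ± 0.425 in 168FARN, Herpud2 10.1% ± 3.0 in 67NR and Slc25a13 10.4% ± 0.0962 in 67NR, just inside. Just outside lay Tor1aip1 with 9.94% ± 1.42 in 67NR, Ttc7b with 9.82% ± 0.143 in 168FARN and Nom1 with 9.79% ± 1.87 in 168FARN (SD, n = 2 per line). Libraries of Herpud2, at 8.0% and 12.2%, and of Tor1aip1, at 10.9% and 8.94%, fell on both sides. The sites with the fewest reads rested on almost none. Prrx1, a mesenchymal homeobox gene, entered with 50.0% ± 70.7 in 4T1, from 1 site read in one library and 2 last-exon reads in the other, while 168FARN had 371 and 525 last-exon reads. Dennd5b and Cdc42ep5 had 3 or fewer reads at site and last exon in each 4T07 library.

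The fits of reads at merged peaks of the per-library lists used libraries that had no part in choosing the sites concerned. They test reads at the site, not usage. Of 76 sites that reach 10% in the tables of 4T1 against 67NR, 25 overlapped a peak that passed the low-count filter in 168FARN and 4T07 (edgeR quasi-likelihood test, Benjamini-Hochberg adjusted p under 0.05 over 15870 peaks). Reads were higher in 4T07 at 5 of the 25, beside 17% of all peaks, and lower at 4, beside 15.9%. Of 118 sites from 4T07 against 67NR, 40 were tested in 168FARN and 4T1, and 3 were higher in 4T1, beside 9.82% of all peaks, and 7 lower, beside 11.3%. These shares are near those of all peaks or rest on few sites. The direction was that of the source table at 5 of the 9 called sites and at 4 of the 10.

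Among called sites with reads in all 4 lists, Abcb10, which was used less in 4T1 than in 67NR in its source table, had 1 and 3 reads in 168FARN and 26 and 31 in 4T07 (log2 difference 3.81 ± 0.53 SE, edgeR adjusted p = 0.0183). Eif4e2, used more in 4T1 than in 67NR, had 819 and 884 reads in 168FARN and 410 and 505 in 4T07 (-0.85 ± 0.08 SE, edgeR adjusted p = 0.0107). Both thus ran against their source table. Rock2 and Dstyk ran the same way as theirs. Rock2 had 211 and 380 reads in 168FARN and 41 and 49 in 4T1 (-2.48 ± 0.33 SE, edgeR adjusted p = 0.0263), and Dstyk, a kinase gene, 26 and 26 against 2 and 2 (-3.40 ± 0.40 SE, edgeR adjusted p = 0.0244). Mmd also ran against its source table, with 35 and 38 reads in 168FARN and 261 and 242 in 4T1 (3.02 ± 0.21 SE, edgeR adjusted p = 0.0185), as did Auh with 46 and 37 against 4 and 3 (-3.29 ± 0.45 SE, edgeR adjusted p = 0.0271). A listed 0 is not a count of 0. Sec23b was called higher in 4T1, with 12 and 18 reads, from 168FARN lists that hold 0 and 0, while the deposited table gives 47 and 44 reads there. Lists held 0 at 8.61% to 17.7% of these sites with table reads. With only peaks listed in all 4 libraries, 2 sites were higher (beside 14.3%) and 3 lower (beside 15.2%) in 4T07, and 1 higher (beside 5.56%) and 3 lower (beside 6.67%) in 4T1; that restriction also removes sites whose reads fell to 0.

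Leaving out a library leaves 1 library in a group, and fewer sites and fewer of all peaks were then called. The range of calls is in the closing section. In 4T07 against 168FARN the median log2 difference over the tested sites was -0.52 with all libraries. It was -0.37 and -0.86 without 168FARN replicate 1 and 2, and -0.52 and -1.06 without 4T07 replicate 1 and 2. In 4T1 against 168FARN the median was -0.27 with all libraries. There it was -0.45 and -0.35 without 168FARN replicate 1 and 2, and -0.57 and -0.74 without 4T1 replicate 1 and 2. Medians over all peaks lay between -0.13 and 0.11 in these fits. DESeq2 on all libraries called 12 of 25 sites in 4T07 against 168FARN, beside 38.6% of all peaks, and 12 of 40 in 4T1 against 168FARN, beside 33.2%.

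The antisense block of U1 in 4T1 gave a readout that the rule did not use for the 179 sites whose tables do not include 4T1. The authors' deposited table of 4T1-U1-ASO against 4T1 lists 1561 sites, 193 of them (12.4%) with lower usage after the block and 87.6% with higher usage. It overlaps 25 of the 179 sites by at least 1 base, and usage after the block was lower at 24 of the 25. Of the 195 table sites used at 10% or more in 4T1, 113 (57.9%) were lower, and 20 of the 25 were at that level, with 19 of the 20 lower. Of sites that stayed below 10% in the lines and whose tables lack 4T1, 15 overlapped and 3 were lower. Over the 24 sites, median usage was 19.3% in 4T1 (range 4.79% to 97.5%) and 4.34% after the block (range 0.631% to 89.9%). The groups did not overlap at the 24, nor at any of the 193 lower sites of the table. With the sites whose tables include 4T1, 38 of the 292 overlapped, and 30 were lower and 8 higher. These overlaps were counted after the data were seen and have no test of their own.

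**Figure D5:**
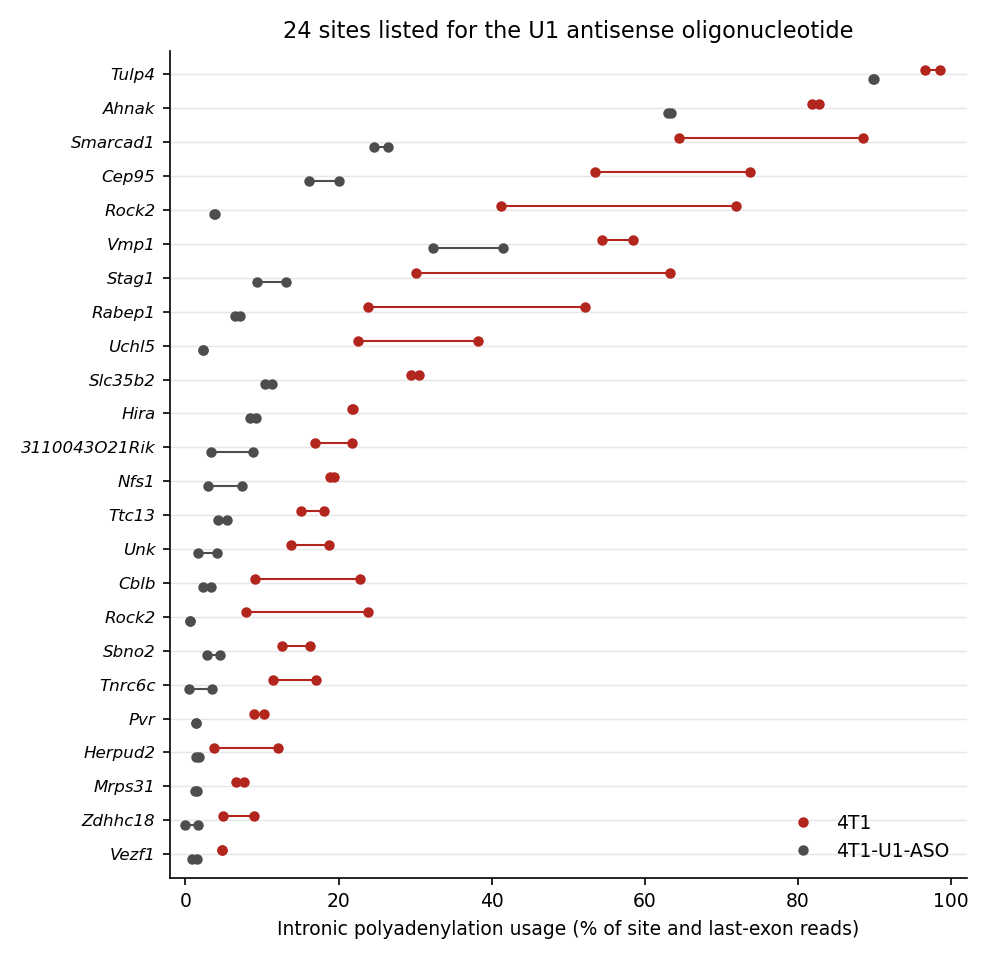
Usage (%) in 4T1 (red) and 4T1-U1-ASO (grey) of 24 of the 25 sites that the authors' deposited table lists for the U1 block and whose line tables do not include 4T1; each point is a library and Rock2 has 2 sites. The grey points lie below the red ones in all 24 rows, and the site that was higher after the block is not drawn.

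The site of Rock2 that starts at 16929810 had 41 and 49 site reads in 4T1 and 34 and 35 after the block, while the last exon went from 16 and 70 reads to 843 and 887. Its usage was 56.6% ± 21.7 in 4T1 and 3.84% ± 0.0562 after the block (SD, n = 2 per group), with a log2 fold change of -3.98 in the authors' deposited table. Smarcad1 had 76.5% ± 17 and 25.6% ± 1.28, Cep95 63.6% ± 14.3 and 18.1% ± 2.74, and Vmp1 56.4% ± 2.91 and 36.9% ± 6.47 (SD, n = 2 per group). Slc35b2 had 30.0% ± 0.723 and 10.9% ± 0.723, and Nfs1, a cysteine desulfurase gene, 19.2% ± 0.325 and 5.17% ± 3.09 (SD, n = 2 per group). Tmem167, whose tables include 4T1, had 19.2% ± 0.683 and 0.788% ± 0.535, with 89 and 102 site reads in 4T1 and 5 and 2 after the block (SD, n = 2 per group).

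Reads at merged peaks were tested in the same libraries for 75 of the 179 sites whose tables do not include 4T1. They were higher after the block at 5, beside 12.1% of all peaks, and lower at 9, beside 10.9% (edgeR quasi-likelihood test, adjusted p under 0.05 over 16453 peaks). These shares are near those of all peaks or rest on few sites. Another 33 tested sites were chosen in part on 4T1 values, and 4 of them were called higher and 5 lower, from which nothing is read. Among the 75, Slc35b2 fell from 80 and 62 reads to 10 and 12 (log2 difference -2.83 ± 0.35 SE, edgeR adjusted p = 0.0312), Mmd from 261 and 242 to 40 and 29 (-3.00 ± 0.28 SE, edgeR adjusted p = 0.0299) and Nfs1 from 26 and 25 to 5 and 2 (-2.95 ± 0.56 SE, edgeR adjusted p = 0.0429). Among the 5 largest rises of all tested sites, Cp, Padi2, Sh3glb1 and Zzef1 were listed at 0 in both 4T1 libraries. For Padi2 and Zzef1 the line tables give 12 and 7 reads and 30 and 23 reads there, so no fold is given. For the sites whose tables lack 4T1, with only peaks listed in all 4 libraries, 2 of 57 were higher (beside 5.57%) and 4 lower (beside 10.4%). Leaving out a library leaves 1 library in a group, and the number of calls depended on the library left out, as it did over all peaks. The median log2 difference over the tested sites whose tables lack 4T1 was -0.17 with all libraries. It was -0.38 and -0.22 without 4T1 replicate 1 and 2, and -0.49 and -0.24 without 4T1-U1-ASO replicate 1 and 2. Over all peaks the median was 0.17, 0.26, 0.46, 0.18 and 0.17 in the same order. DESeq2 on all libraries called 10 higher and 15 lower of the 75 (33.3%), beside 36.9% of all peaks in either direction.

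In the authors' deposited tables that share no library, the 76 sites of 4T1 against 67NR met 27 listings in 4T07 against 168FARN, 20 in the same direction. The 118 sites of 4T07 against 67NR met 16 listings in 4T1 against 168FARN, 13 in the same direction. These are counts of sites that differed in both tables and carry no test. At Trps1 the authors' deposited tables give log2 fold changes of 2.03 in 4T1 against 67NR and 3.58 in 4T07 against 168FARN, and at Dhx40 -3.23 and -6.63.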

How the data were processed

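Build mm9, DESeq2 1.4.5, bedtools 2.17.0, Bowtie2 2.2.5 and SAMtools 1.1 are named in the submitters' processing notes, with no role stated. Per the file headers, the authors' tables hold, for each intronic site, an adjusted p-value of at most 0.1, a log2 fold change and a normalized signal of the site and of the last exon in each library. The peak lists deposited per library give a read count per peak. The members and gene lists were chosen with earlier results of these data known.

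Usage was computed per library from the normalized signal, where library scaling cancels. The deposited sign was turned for tables of 67NR, so that values are metastatic minus non-metastatic; it matched the normalized values at 750 of 750 rows. Dividing each column by its value of 1 read gave whole numbers, within 0.1 read, for 100% of values. Coordinates are 1-based on mm9. That a site is intronic rests on the authors' tables, since no mm9 annotation was used here; 249 of 261 gene symbols are current in RefSeq's GRCm38 table and 9 more are unique synonyms.

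Same-strand peaks of the libraries compared were merged over 19 chromosomes and tested with edgeR 4.0.16 in R 4.3.3 (filterByExpr, TMM, quasi-likelihood, adjusted p under 0.05). The fits were tried on simulated data with a dispersion set to 0.05, not estimated from these libraries. In 4T07 against 168FARN, 19.1% of 2-fold, 81.6% of 4-fold and 98% of 8-fold changes were recovered over 15678 peaks. The shares were 12.2%, 88% and 98% over 15224 peaks in 4T1 against 168FARN. In 4T1-U1-ASO against 4T1 they were 20.8%, 81.6% and 98% over 16367. An edgeR fit of recovered reads (site by group interaction) called 100% of listed sites in each comparison, members and others alike; it covers only sites the authors had selected and treats site and last exon of a library as independent, so nothing is read from it. DESeq2 1.42.0 and the other alternatives are in the closing section. Named sites are the 12 with the largest and the 6 with the smallest difference over 4 lines at 20 reads or more, the 10 with the most site reads, up to 4 per gene list, the 3 nearest the threshold on each side, the 5 largest rises and falls called in each peak fit, the 4 genes with the most sites and the 5 sites with the fewest reads. A few sites that these rules name are not reported here or drawn in the figures, and they stay in the counts.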

Additional observations from a re-analysis of the deposited data

Results flagged for a closer look

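At 10 of the 117 sites in 2 or more of the authors' deposited comparisons of metastatic with non-metastatic lines, the directions were opposite. All 10 have values in all 4 lines. Within each comparison the libraries of the 2 lines did not overlap. The same held at 335 of the 340 listed sites with values in 2 lines, so nothing is read from that. The difference between the comparisons was not tested. As log2 fold changes in the authors' deposited tables, 4T1 against 67NR and 4T07 against 168FARN gave 1.64 and -1.46 for Sbno2, 1.18 and -1.42 for Eif4e2, 1.69 and -1.68 for Rin2, 1.94 and -2.05 for Prickle2, -1.66 and 1.58 for Nav2, and -2.81 and 3.08 for Abcb10. Auh had 1.34 in 4T07 against 67NR and -1.79 in 4T1 against 168FARN in the authors' deposited tables. Kcnk2 had 1.32 in 4T07 against 67NR, 2.38 in 4T1 against 67NR and -2.64 in 4T07 against 168FARN. Ddah1 had 1.92 in 4T07 against 67NR, 1.24 in 4T07 against 168FARN and -1.31 in 4T1 against 168FARN. As3mt had -3.93 in 4T07 against 67NR, -1.37 in 4T1 against 67NR and 1.44 in 4T1 against 168FARN, the last from 1 site read in each 4T1 library and none in 168FARN.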

How the results depend on the processing

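The number of sites at 10% or more was within 1.5 times of 292 under pooled reads, both replicates at 10%, a minimum of 10 reads and a deposited adjusted p of at most 0.05, was 286 to 290 on leaving out a replicate, and was 160 at a deposited adjusted p of at most 0.01. At that threshold 4 sites were higher and 26 lower in 4T1 against 67NR, 10 and 64 in 4T07 against 67NR, 7 and 15 in 4T1 against 168FARN, and 79 lower in 4T07 against 168FARN. The difference between the highest and lowest line was also followed under pooled reads and on leaving out a replicate. It stayed above 0 at 77 of the 78 named sites reported here. At Prrx1 it was 0 points without replicate 2 and 99.6 without replicate 1. The highest and lowest lines were picked from these same libraries and rarely overlapped. A difference above 0 was thus largely fixed in advance, and nothing is read from it. With a replicate block, the number of sites called in the fits of merged peaks was 0 in both directions of all 3 comparisons, as was the number of all peaks called, while 12, 13 and 31 sites passed at an unadjusted edgeR p under 0.05. Replicate numbers do not pair the libraries by any label, and with 2 pairs the correlation of their deviations was 0.018, 0.062 and -0.0076 in the fits of merged peaks, and 0.31, 0.082, 0.27 and 0.083 in recovered reads of 4T1 and 4T07 against 67NR and of 4T1 and 4T07 against 168FARN. On leaving out a library, calls ranged from 0 to 3 higher and 0 to 1 lower in 4T07 against 168FARN, 0 to 1 and 0 to 1 in 4T1 against 168FARN, and 0 to 12 and 0 to 9 in 4T1-U1-ASO against 4T1 over all 108 tested sites; the lone library was assumed to vary like the others. Without the low-count filter 8 sites were lower in 4T07 against 168FARN, and with DESeq2 14 were higher after the U1 block. With only peaks listed in all 4 libraries, chosen after seeing the data, 2 were higher in 4T07 against 168FARN, 1 higher and 3 lower in 4T1 against 168FARN, and 3 higher and 8 lower after the block. In the fits of recovered reads, members called ranged from 77 to 77 and 118 to 119 against 67NR and from 53 to 55 and 189 to 192 against 168FARN on leaving out a library. Pseudocounts of 1 and 5, chosen after seeing the data, kept the counts of the split between site and last exon within 1.5 times.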
